A study of Ovis aries with 40 samples.

Results

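The distal lung of fetal sheep at 100 days of gestation was compared with that at 80 days, in wild-type (WT) and cystic fibrosis (CF) animals together. The comparison holds 8 of the 40 libraries of the series. They are the libraries labelled distal lung at these ages, with 2 for each genotype and age, so that 4 libraries at 100 days stand against 4 at 80 days with genotype as a covariate. All animals were American Romney sheep. The WT fetuses were bred, and the CF fetuses were *CFTR*-/- animals made by nuclear transfer from edited fetal fibroblasts of a single male line, so they are clones of 1 cell line and the WT fetuses are not. *CFTR* encodes the epithelial chloride and bicarbonate channel that is lost in CF. The study set out to describe how the lung transcriptome changes over gestation and where CF lungs depart from it, and the question here is which changes between 80 and 100 days the 2 genotypes share.

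Around these ages the airways of the fetal sheep lung grow and their epithelium branches further. The tips widen into thin-walled canals, and capillaries come to lie against the epithelium. The epithelium of the tips separates into alveolar type 2 cells, which make surfactant, and flat alveolar type 1 cells, which form the gas exchange surface. Proliferation slows as the cells differentiate, and the lung goes on secreting fluid through chloride channels until near birth, when sodium channels take it up.

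RNA was isolated from snap-frozen tissue and sequenced in bulk from oligo(dT)-primed libraries. The libraries held 29327274 to 43700012 counted reads in WT and 85773994 to 95350386 in CF, so depth differed between genotypes but not in one direction between ages. Mitochondrial genes took 1.8% to 2.33% of the reads. The labels call the samples epithelial tissue, but the summed level of 35 endothelial genes was 3370 to 4480 CPM, the normalized read count, and that of 32 collagen and collagen-processing genes 15500 to 23800 CPM, so the tissue held vessels and mesenchyme as well. On principal components of the 8 libraries, the first (46.4% of the variance) separated the genotypes and the second (21.5%) the ages. The 2 WT libraries at 100 days carry the same animal label. They differed from each other by a root mean square of 0.222 in log2 CPM for genes averaging at least 1 on that scale, against 0.221 for the CF pair at 100 days and 0.325 to 0.35 for the pairs at 80 days, and their counts, divided by 2 since both mates of a pair appear to be counted, differed by more than sampling noise (a chi-square of 3.61 per gene, against 10.3 to 41.8 in the other pairs). This chi-square grows with depth, which was greater in CF, so it does not compare spread between the genotypes. Repeat preparations of 1 animal could differ by more than sampling noise too, so the value does not show that the 2 WT libraries come from 2 animals. They were kept as 2 because the labels list 2 samples. Each SE and adjusted p below counts them as 2 unless stated otherwise, and could be too small if they are 1 animal. The DEG count is given below with both summed. CF replicate 2 at 100 days shares its animal label with a WT library of another age, and was placed by its title. The labels do not say which libraries come from separate litters, so p-values measure the spread between these samples.

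Read counts were tested with edgeR's quasi-likelihood test, and every adjusted p below is a Benjamini-Hochberg value over all genes tested in that comparison. A differentially expressed gene (DEG) reached an adjusted p of 0.001 and changed 1.5-fold, or by 0.58 in log2, in either direction. Log2 fold changes are positive where the level at 100 days was higher, standard errors (SE) come from the fit, and CPM are TMM-normalized within the 8 libraries. For gene lists, a member is counted as higher or lower when its adjusted p is 0.05 or less, whatever its fold.

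*CFTR*, the gene targeted in the CF animals, had 44.6 and 46.6 CPM at 80 days and 33.6 and 28.2 CPM at 100 days in WT, and 30.6 and 36.5 CPM and 20.3 and 24.3 CPM in CF. It fell in both genotypes (log2 fold change -0.58 ± 0.09 SE, adjusted p = 0.00249), although the 4 older libraries overlapped the 4 younger ones, and the change was -0.56 in WT and -0.59 in CF. Its messenger RNA was thus counted in the knockout as well. The counts cover the whole gene and do not resolve the edited exon, so they check neither the genotype nor the labels.

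Of 18178 genes tested, 223 (1.23%) were DEGs between 80 and 100 days, of which 132 (0.726%) were higher and 91 (0.501%) lower at 100 days. At an adjusted p of 0.05 alone, 1301 genes (7.16%) were higher and 1218 (6.7%) lower. Over all genes tested, the median change was -0.01 in log2. The DEG count depended strongly on the WT libraries at 100 days. It was 23 without replicate 1, 30 without replicate 2 and 24 with both summed into 1 library, whereas all 223 genes kept their direction and an adjusted p of 0.05 or less in each of these 3 fits.

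With 1 spread for all 8 libraries there were 138 DEGs within WT (0.739% of 18663 genes tested) and 17 within CF (0.0911%), and 11.5% and 4.45% of genes passed an adjusted p of 0.05. WT and CF share no library, but calls made with a shared spread are not independent, so the 2 genotypes were also fitted apart, a choice made after seeing the data. Fitted apart, WT had 265 DEGs (1.55% of 17125 genes tested), of which 263 were tested in CF too. Of these, 251 (95.4%) had the same sign in CF, with a median change of 1.16 in size in WT and 0.61 in the same direction in CF. There, 80 passed an adjusted p of 0.05 in that direction, against 1.56% of all genes in either direction. CF fitted apart had 0 DEGs by edgeR (0%), although 3225 genes had an unadjusted p under 0.05. Among genes tested in both, 273 passed an adjusted p of 0.05 and the 1.5-fold limit in CF. Of these, 264 (96.7%) had the same sign in WT, with a median change of 1.02 in size in CF and 0.888 in the same direction in WT, and 209 passed 0.05 there, against 15.9% of all genes. The WT spread rests partly on the pair with 1 animal label. Over all 18178 genes the sign was the same in 64.3%. The 223 DEGs of both genotypes together had the same sign in WT and CF without exception, but they were chosen on the mean of the 2 changes. Their change was larger in WT for 149 of them (66.8%), with a median size of 1.09 in WT and 0.931 in CF, and over all genes tested it was larger in WT for 58.8%, with medians of 0.239 and 0.193.

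**Figure D1:**
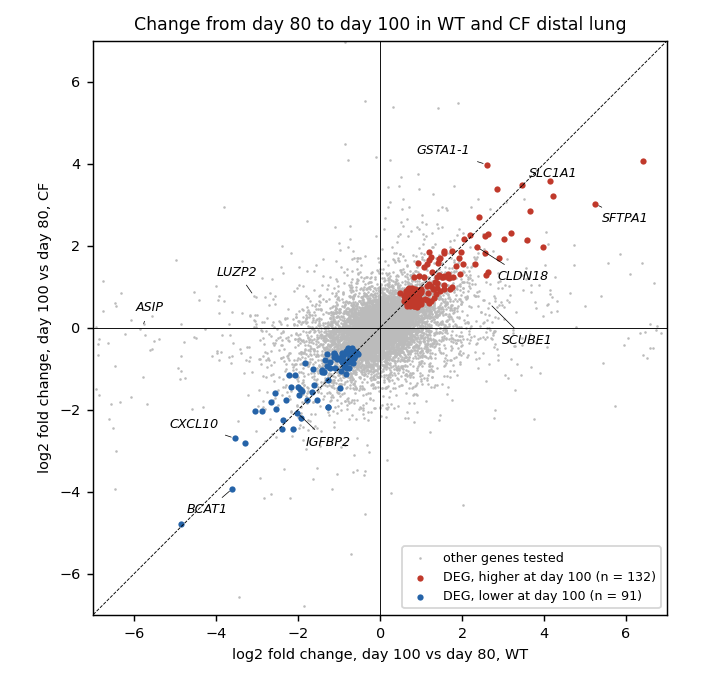
Log2 fold change from 80 to 100 days in WT (x axis) and in CF (y axis) for each gene tested, with the 132 DEGs higher at 100 days in red, the 91 lower in blue and the dashed line marking equal change. The DEGs lie along the dashed line in the upper right and lower left, whereas *ASIP* and *LUZP2* fell in WT and lie close to or above 0 in CF. Genes outside the axis range are not drawn.

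Of 21 surfactant and alveolar type 2 genes, 18 were tested, and 10 were higher and 2 lower at 100 days, with a median change of 0.41. As in all results from bulk tissue, more cells of a type and more RNA per cell cannot be told apart. *SFTPA1* (chromosome 25, 35170066 to 35174178 of Oar_v4.0), which encodes the collectin surfactant protein A, had 1.22 and 0.1904 CPM at 80 days and 22.98 and 27.1 CPM at 100 days in WT, and 1.28 and 2.66 CPM and 13.3 and 18.7 CPM in CF. Every library at 100 days was above every library at 80 days, as is required of the large changes named here. Among DEGs that meet this, average at least 1 in log2 CPM and have no LOC symbol, it was the largest rise (log2 fold change 3.89 ± 0.49 SE, adjusted p = 0.000701). *SFTPD*, which lies next to it on chromosome 25 (35060767 to 35150456) and encodes the related defence protein surfactant protein D, had 6.36 and 4.05 CPM at 80 days and 61.8 and 61.4 CPM at 100 days in WT, and 10.1 and 20.8 CPM and 68.8 and 66.6 CPM in CF. The CF libraries at 80 days stood above the WT ones, and both genotypes reached similar levels at 100 days (log2 fold change 2.78 ± 0.31 SE, adjusted p = 0.000335).

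*SFTPB*, whose protein spreads surfactant lipid at the air surface, had 271 and 124 CPM at 80 days and 482 and 457 CPM at 100 days in WT, and 167 and 179.98 CPM and 575 and 562 CPM in CF. The ages did not overlap, and WT replicate 1 at 80 days stood well above its partner (log2 fold change 1.48 ± 0.20 SE, adjusted p = 0.000908). *SLC34A2*, the phosphate transporter of type 2 cells, had 205 and 206 CPM at 80 days and 1223 and 1244 CPM at 100 days in WT, and 401 and 584 CPM and 1144 and 1261 CPM in CF. Its level at 100 days was alike in the genotypes while at 80 days CF stood above WT, and the difference of the changes narrowly missed an adjusted p of 0.05 (log2 fold change 1.94 ± 0.23 SE, adjusted p = 0.000529, difference adjusted p = 0.0508). The change was smaller for *SFTPC*, whose peptide is made by type 2 cells alone in the mature lung, with 870.2 and 765 CPM at 80 days and 1122 and 1154 CPM at 100 days in WT, and 485 and 671 CPM and 696 and 905 CPM in CF. The ages overlapped between genotypes, though not within either genotype (log2 fold change 0.47 ± 0.11 SE, adjusted p = 0.0181). *SFTPC* is named here after its values were seen. The 2 members lower at 100 days were *ETV5*, a transcription factor downstream of FGF signals (log2 fold change -0.69 ± 0.07 SE, adjusted p = 0.000177), and *ALPL*, alkaline phosphatase (log2 fold change -0.87 ± 0.18 SE, adjusted p = 0.0092).

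Of 19 alveolar type 1 genes, 12 were higher and 1 was lower, with a median of 0.66, and 10 of the 19 had all 4 libraries at 100 days above all 4 at 80 days, against 4.82% of all genes. *CLDN18* (chromosome 1, 249017793 to 249042725), the tight junction protein of the alveolar barrier, had 58.4 and 56.4 CPM at 80 days and 284 and 309.9 CPM at 100 days in WT, and 44.9 and 56.1 CPM and 206 and 187 CPM in CF. At 100 days WT stood above CF, all 4 libraries lay far above those at 80 days, and it shared the smallest adjusted p of the comparison with *IGFBP2* (log2 fold change 2.16 ± 0.10 SE, adjusted p = 5.31e-06). *GPRC5A*, a retinoid-induced receptor of alveolar epithelium, had 38.8 and 23.9 CPM at 80 days and 127 and 129.7 CPM at 100 days in WT, and 33.7 and 25.7 CPM and 140.2 and 127 CPM in CF. The 4 older libraries lay within a narrow range (log2 fold change 2.104 ± 0.14 SE, adjusted p = 2.35e-05). *AQP5*, the apical water channel, had 2.504 and 1.38 CPM at 80 days and 5.31 and 6.32 CPM at 100 days in WT, and 2.47 and 1.401 CPM and 17.3 and 12.05 CPM in CF, and passed 0.05 but not the DEG limit (log2 fold change 2.32 ± 0.32 SE, adjusted p = 0.00114). *HOPX*, a homeodomain protein of type 1 cells, rose (log2 fold change 1.57, adjusted p = 0.000242).

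**Figure D2:**
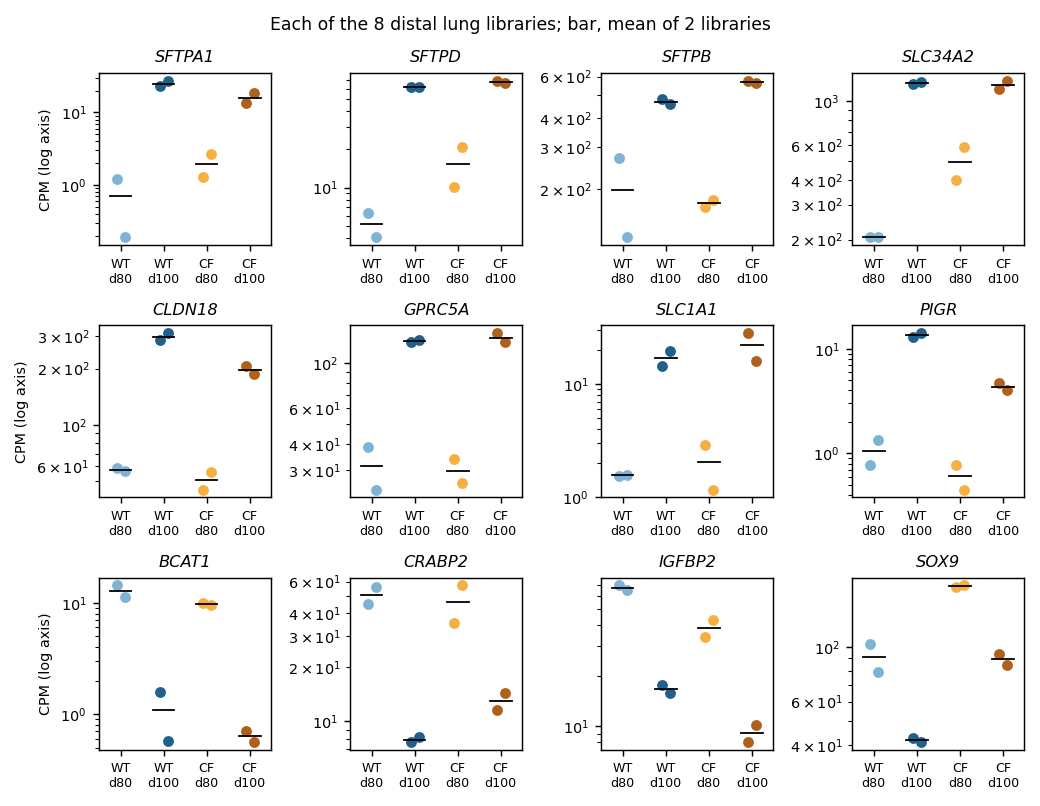
CPM on a log axis in each of the 8 libraries for 12 genes, with 2 points for each genotype and age and a bar at their mean. For the 8 genes in the upper 2 rows the libraries at 100 days lie above those at 80 days, and *BCAT1*, *CRABP2* and *IGFBP2* show the reverse. *SOX9* fell in each genotype, but WT at 80 days and CF at 100 days overlap.

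Of 20 tip progenitor and endoderm factors, 7 were lower and 2 higher at 100 days, with a median of -0.19. *SOX9*, the transcription factor of the branching tips, had 103 and 78.9 CPM at 80 days and 42.8 and 41.2 CPM at 100 days in WT, and 174 and 177 CPM and 93.5 and 84.5 CPM in CF. It fell within each genotype, with CF above WT at both ages (log2 fold change -1.04 ± 0.08 SE, adjusted p = 7.57e-05). *ELF5*, an epithelial factor of the tips, fell (log2 fold change -1.32, adjusted p = 0.00134) and *ETV4* (log2 fold change -0.72, adjusted p = 0.00161). *KLF5*, an epithelial factor kept in this list, went the other way, with 65.3 and 73.9 CPM at 80 days and 204 and 237 CPM at 100 days in WT, and 54.2 and 61.6 CPM and 124 and 149.7 CPM in CF (log2 fold change 1.45 ± 0.11 SE, adjusted p = 4.72e-05), and no library at 100 days reached down to those at 80 days. The oncofetal list of RNA-binding and chromatin genes had 13 members, of which 12 were tested, 5 were lower and 0 higher, with a median of -0.32. *IGF2BP1*, which binds fetal messenger RNAs, fell (log2 fold change -1.04, adjusted p = 0.000606), *HMGA2*, a chromatin protein of growing tissue, (log2 fold change -1.27, adjusted p = 0.00134) and *MSI1* (log2 fold change -1.07, adjusted p = 0.00223). The count of 5 went down to 3 when CF replicate 2 at 80 days or either CF library at 100 days was left out, and to 0 with the spread of all 20 distal libraries.

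Among the airway lists, the basal and motile cilia lists gave few calls and the secretory list more. Of 12 airway secretory genes tested, 2 were higher (16.7%) and 3 lower (25%), against 7.16% and 6.7% of all genes. Each of these counts is small, and the calls of *SCGB3A2* and *AGR3* were kept in 6 of 8 fits without 1 library. *SCGB3A2*, a secretoglobin, had 1.22 and 11.6 CPM at 80 days and 24.9 and 40.4 CPM at 100 days in WT, and 0.5204 and 1.13 CPM and 4.39 and 2.11 CPM in CF, with WT replicate 2 at 80 days above both CF libraries at 100 days (log2 fold change 2.17 ± 0.52 SE, adjusted p = 0.0194). *TFF3*, a mucosal repair peptide, rose (log2 fold change 0.97, adjusted p = 0.00508). *AGR3* fell (log2 fold change -2.74 ± 0.69 SE, adjusted p = 0.0238) from 1.53 to 9.59 CPM at 80 days to 0.0723 to 0.837 CPM at 100 days. *GALNT6*, which starts O-linked glycans, also fell (log2 fold change -2.21 ± 0.36 SE, adjusted p = 0.00257), but its exons overlap those of *CELA1* and the reads cannot be told apart. Of 37 motile cilia genes tested, 1 was higher and 0 lower, which is below the share of all genes in both directions, and of 10 airway basal genes 0 were higher and 1, *NGFR*, was lower (log2 fold change -0.88 ± 0.26 SE, adjusted p = 0.0454), a call that was lost in each of the 8 fits that left out 1 library. *WFDC2*, an airway antiprotease, did not pass (log2 fold change 0.62 ± 0.25 SE, adjusted p = 0.123).

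Of 21 ion and water transport genes tested, 6 were higher and 2 lower. *SLC1A1* (chromosome 2, 72318327 to 72393056), a sodium-coupled glutamate transporter, had 1.54 and 1.57 CPM at 80 days and 14.6 and 19.9 CPM at 100 days in WT, and 2.87 and 1.16 CPM and 28.3 and 16.2 CPM in CF. It rose alike in the genotypes, with a log2 fold change of 3.47 in WT and 3.47 in CF (log2 fold change 3.47 ± 0.28 SE, adjusted p = 7.92e-05). *SCNN1B*, the beta subunit of the epithelial sodium channel, had 4.17 and 4.74 CPM at 80 days and 14.7 and 11.7 CPM at 100 days in WT, and 2.75 and 1.85 CPM and 7.03 and 9.89 CPM in CF. All libraries at 100 days were above those at 80 days (log2 fold change 1.72 ± 0.18 SE, adjusted p = 0.00028). The gamma subunit *SCNN1G* also rose (log2 fold change 1.42 ± 0.26 SE, adjusted p = 0.005), while the alpha subunit *SCNN1A* did not pass (log2 fold change 0.55 ± 0.27 SE, adjusted p = 0.208). Its exons overlap those of another locus.

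*ANO1*, a calcium-activated chloride channel, had 30.4 and 26.3 CPM at 80 days and 62.9 and 66.5 CPM at 100 days in WT, and 53.8 and 60.9 CPM and 83.5 and 77.7 CPM in CF (log2 fold change 0.83 ± 0.13 SE, adjusted p = 0.00204). CF stood above WT at 80 days, and the change was 1.19 in WT and 0.49 in CF (difference adjusted p = 0.116). *AQP1*, the water channel of capillaries, rose (log2 fold change 1.09, adjusted p = 0.00231). For *SLC26A9*, another chloride transporter, the ages overlapped, with 17.5 and 26.5 CPM at 80 days in WT but 37.3 and 70.0 CPM in CF (log2 fold change 0.33 ± 0.21 SE, adjusted p = 0.34). Over all 280 solute carrier genes tested, 20 (7.14%) were higher and 19 (6.79%) lower, close to the shares of 7.16% and 6.7% among all genes, and the median change was 0.0014. Beside *SLC1A1* and *SLC34A2*, the largest rises were in *SLC39A8*, a zinc and manganese importer, with 14.5 and 9.57 CPM at 80 days and 78.5 and 100.3 CPM at 100 days in WT, and 12.2 and 10.9 CPM and 42.9 and 32.8 CPM in CF (log2 fold change 2.29 ± 0.24 SE, adjusted p = 0.00025), and in *SLC6A20*, a proline transporter (log2 fold change 1.87 ± 0.40 SE, adjusted p = 0.0109).

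**Figure D3:**
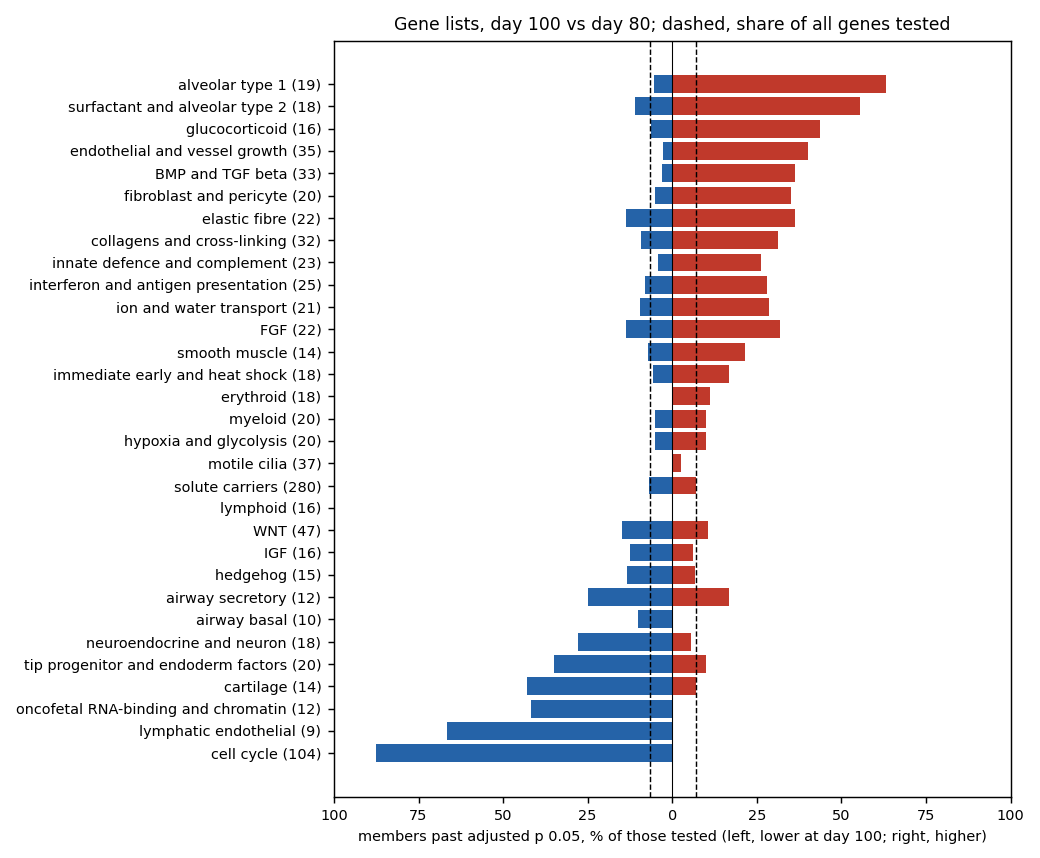
Share of tested members of each gene list past an adjusted p of 0.05, with members higher at 100 days to the right and members lower to the left, and the number tested in parentheses. Dashed lines mark the shares among all 18178 genes, 7.16% higher and 6.7% lower. The alveolar lists reach farthest right and the cell cycle list farthest left, and lists with fewer than 9 tested members are not drawn.

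Of 35 endothelial and vessel growth genes, 14 were higher and 1 lower at 100 days, with a median of 0.29 and a summed level of 3370 to 3670 CPM at 80 days and 4150 to 4480 CPM at 100 days. *NRP1*, a VEGF co-receptor, had 267 and 263 CPM at 80 days and 423 and 455 CPM at 100 days in WT, and 262 and 233 CPM and 361 and 357 CPM in CF (log2 fold change 0.63 ± 0.07 SE, adjusted p = 0.000335). *ESAM*, an endothelial adhesion molecule, had 56.5 and 47.6 CPM at 80 days and 80.2 and 83.4 CPM at 100 days in WT, and 56.9 and 56.7 CPM and 84.8 and 85.8 CPM in CF (log2 fold change 0.62 ± 0.07 SE, adjusted p = 0.000277). *EGFL7*, secreted by endothelium, rose (log2 fold change 0.65, adjusted p = 0.000263), and the only member that fell was *VWF*, the clotting factor carrier of larger vessels, with 112 and 88.2 CPM at 80 days and 53.7 and 39.3 CPM at 100 days in WT, and 195 and 226 CPM and 95.4 and 180.4 CPM in CF (log2 fold change -0.85 ± 0.19 SE, adjusted p = 0.014). The count of 14 became 9 without WT replicate 1 at 100 days. *VEGFA*, the main vessel growth factor and here a member of the type 1 list, rose (log2 fold change 0.62, adjusted p = 0.000503).

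Lymphatic endothelial genes went the other way. Of 11 listed, 9 were tested, 6 were lower and 0 higher, with a median of -0.60 and all 9 estimates below 0. *RELN*, a secreted glycoprotein of lymphatic endothelium among other cells, had 13.9 and 19.02 CPM at 80 days and 5.095 and 2.99 CPM at 100 days in WT, and 7.43 and 15.7 CPM and 2.25 and 3.86 CPM in CF (log2 fold change -1.98 ± 0.27 SE, adjusted p = 0.00108). *STAB2*, a scavenger receptor, had 1.798 and 2.57 CPM at 80 days and 0.0723 and 0.577 CPM at 100 days in WT, and 3.697 and 8.18 CPM and 1.06 and 0.895 CPM in CF (log2 fold change -2.62 ± 0.41 SE, adjusted p = 0.00204). *PROX1*, the factor that specifies lymphatic fate, fell (log2 fold change -1.21, adjusted p = 0.00769), with exons that overlap another locus, and the receptor *FLT4* (log2 fold change -0.604, adjusted p = 0.0101). The summed level went from 212 to 366 CPM at 80 days to 151 to 192 CPM at 100 days.

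Of 22 elastic fibre genes, 8 were higher and 3 lower, and of 32 collagen and cross-linking genes, 10 were higher and 3 lower. *MFAP4*, a microfibril glycoprotein, had 61.2 and 46.3 CPM at 80 days and 176 and 173 CPM at 100 days in WT, and 71.4 and 80.5 CPM and 114 and 134 CPM in CF (log2 fold change 1.19 ± 0.18 SE, adjusted p = 0.00171). *LTBP2* rose (log2 fold change 1.05, adjusted p = 0.00328) and *FBLN5*, which assembles elastin, (log2 fold change 0.66, adjusted p = 0.00387). Among collagens, *COL15A1*, of the basement membrane zone, had 287 and 223 CPM at 80 days and 529 and 554 CPM at 100 days in WT, and 423 and 330.5 CPM and 572 and 639.6 CPM in CF (log2 fold change 0.89 ± 0.12 SE, adjusted p = 0.000907). *COL4A3* and *COL4A4*, basement membrane chains of the alveolus, rose by 2.25 and 1.08 (adjusted p = 0.0138 and 0.0165), but CF replicate 1 at 80 days had 14.2 and 53.8 CPM of them, more than any other library at 80 days. The 10 collagen rises became 5 without WT replicate 1 at 80 days and 6 without WT replicate 1 at 100 days.

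Of 14 cartilage genes tested, 6 were lower and 1 higher, with a median of -0.39 and a summed level of 508 to 878 CPM at 80 days and 293 to 344 CPM at 100 days. *COL2A1* (chromosome 3, 138202874 to 138233138), the main collagen of cartilage, had 345 and 292 CPM at 80 days and 145 and 119.8 CPM at 100 days in WT, and 454 and 436 CPM and 108 and 123 CPM in CF (log2 fold change -1.61 ± 0.14 SE, adjusted p = 9.28e-05). All libraries at 100 days were below those at 80 days. *COL9A3* fell (log2 fold change -1.95, adjusted p = 0.00288, exons shared with *TCFL5*) and *COL9A2* (log2 fold change -1.18, adjusted p = 0.00805). *MATN4*, a matrilin, rose instead, with 23.8 and 13.3 CPM at 80 days and 55.4 and 49.7 CPM at 100 days in WT, and 24.4 and 32.1 CPM and 65.6 and 66.99 CPM in CF (log2 fold change 1.36 ± 0.16 SE, adjusted p = 0.000445).

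Of 20 fibroblast and pericyte genes tested, 7 were higher and 1 lower. *RGS5*, a pericyte gene, rose (log2 fold change 1.34, adjusted p = 0.00228), *NPNT*, a matrix ligand, (log2 fold change 0.61, adjusted p = 0.0102), and *PI16* (log2 fold change 2.19, adjusted p = 0.00317). Of 14 smooth muscle genes tested, 3 were higher and 1 lower. The median of the list was 1.04 in WT and 0.0854 in CF. Its summed level went from 964 to 1050 CPM at 80 days to 1610 to 1650 CPM at 100 days in WT. In CF it was 1620 to 2260 CPM at 80 days and 1870 to 1950 CPM at 100 days. *ACTA2*, smooth muscle actin, had 81.1 and 90.3 CPM at 80 days and 297 and 296 CPM at 100 days in WT, and 431 and 230.3 CPM and 425 and 421 CPM in CF. It rose in WT from a level that both CF libraries at 80 days already exceeded, and the change was 1.79 in WT and 0.36 in CF (log2 fold change 1.07 ± 0.27 SE, adjusted p = 0.025, kept in 4 of 8 fits without 1 library, difference adjusted p = 0.135). *DES*, desmin, fell (log2 fold change -0.33, adjusted p = 0.0249, kept in 2 of 8 fits without 1 library) and *SYNM*, another intermediate filament protein, rose (log2 fold change 0.63, adjusted p = 0.00169).

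The cell cycle list moved as a body. Of 107 genes listed, 104 were tested, all 104 had a negative log2 fold change, and 91 were lower and 0 higher at an adjusted p of 0.05, 18 of them as DEGs. The median change was -0.54 over the list, -0.64 in WT and -0.44 in CF, and 68 of the 104 had all 4 libraries at 100 days below all 4 at 80 days, against 5.61% of all genes. The summed level was 6110 to 6940 CPM at 80 days and 4600 to 4890 CPM at 100 days, without overlap. *GINS1*, a subunit of the replicative helicase, had 84.03 and 68.9 CPM at 80 days and 29.7 and 32.8 CPM at 100 days in WT, and 68.9 and 66.7 CPM and 45.5 and 40.98 CPM in CF (log2 fold change -0.96 ± 0.12 SE, adjusted p = 0.000862). *CDCA7*, which takes part in chromatin remodelling in S phase, had 99.5 and 89.5 CPM at 80 days and 42.7 and 44.6 CPM at 100 days in WT, and 80.8 and 94.7 CPM and 57.2 and 52.8 CPM in CF (log2 fold change -0.89 ± 0.10 SE, adjusted p = 0.000332). *BRCA1*, the DNA repair factor, had 44.9 and 42.99 CPM at 80 days and 22.1 and 22.6 CPM at 100 days in WT, and 42.6 and 43.7 CPM and 26.7 and 23.7 CPM in CF (log2 fold change -0.87 ± 0.08 SE, adjusted p = 0.000117). In all 3 genes the WT libraries at 100 days were lower than the CF ones, and *EXO1*, an exonuclease, fell (log2 fold change -0.92, adjusted p = 0.00228). In a fit that took the spread from all 20 distal libraries, 4 of the 104 genes passed.

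**Figure D4:**
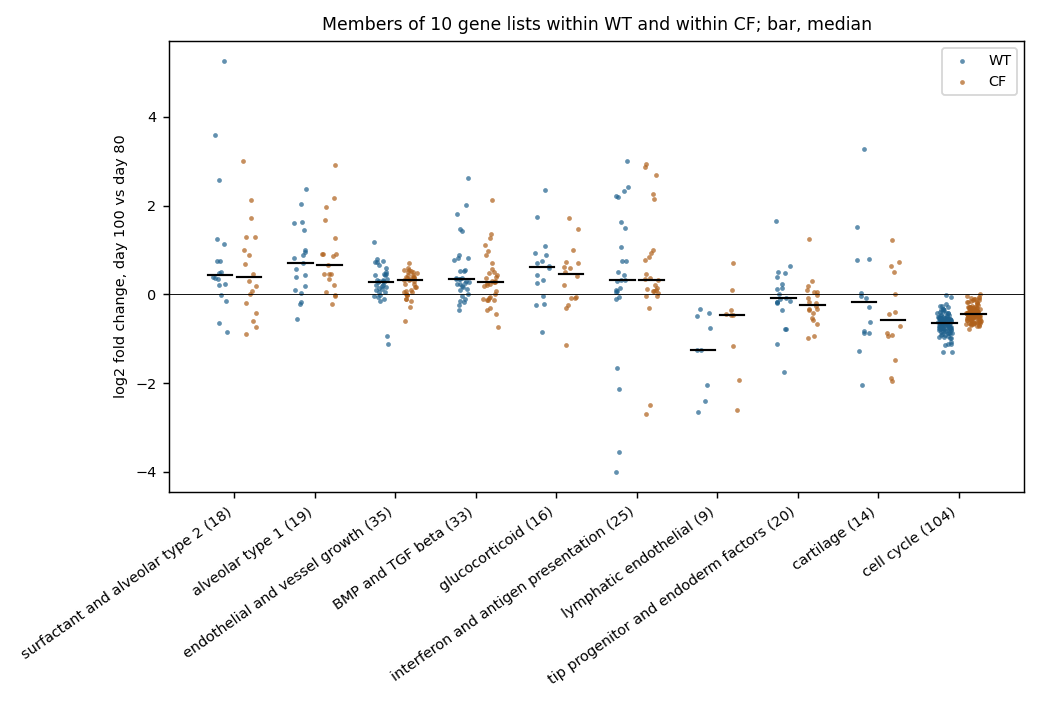
Log2 fold change from 80 to 100 days of every tested member of 10 gene lists, within WT (blue) and within CF (brown), with a bar at the median and the number tested in parentheses. Cell cycle genes lie below 0 in both genotypes (medians -0.64 and -0.44), and the interferon list holds high points together with *CXCL10* and *CXCL11* far below 0.

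Of 33 BMP and TGF beta genes tested, 12 were higher and 1 lower, with a median of 0.34. *BMP2*, a ligand, had 16.95 and 14.7 CPM at 80 days and 38.6 and 46.1 CPM at 100 days in WT, and 13.7 and 13.6 CPM and 32.7 and 33.4 CPM in CF (log2 fold change 1.35 ± 0.09 SE, adjusted p = 2.35e-05). The ligand antagonists *FST* and *GREM1* rose by 1.98 and 1.47 (adjusted p = 0.00143 and 0.00164). None of these 3 overlapped between ages.

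Of 22 FGF genes tested, 7 were higher and 3 lower. *FLRT3*, a membrane protein that binds FGF receptors, had 38.9 and 30.01 CPM at 80 days and 164 and 181 CPM at 100 days in WT, and 27.3 and 33.97 CPM and 71.3 and 108 CPM in CF (log2 fold change 1.93 ± 0.18 SE, adjusted p = 0.000164). The ligands *FGF18* and *FGF7* rose by 1.88 and 1.27 (adjusted p = 0.00477 and 0.00226), and *FGF18* in CF at 80 days had 17.0 and 8.09 CPM against 2.44 and 2.14 CPM in WT. *FGF20* fell (log2 fold change -1.13, adjusted p = 0.0296, kept in 3 of 8 fits without 1 library), beside *ETV4* and *ETV5*. Of 47 WNT genes tested, 5 were higher (10.6%) and 7 lower (14.9%), against 7.16% and 6.7% of all genes. *WNT7B*, the epithelial ligand, had 17.98 and 18.6 CPM at 80 days and 7.19 and 6.56 CPM at 100 days in WT, and 17.6 and 25.1 CPM and 11.1 and 9.94 CPM in CF (log2 fold change -1.21 ± 0.14 SE, adjusted p = 0.000404). The secreted inhibitors *SFRP1* and *SFRP4* fell, with log2 fold changes of -1.22 and -0.82 (adjusted p = 0.00355 and 0.0145), and the receptor *FZD5* rose (log2 fold change 0.74, adjusted p = 0.0111).

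Of 15 hedgehog genes, 1 was higher (6.67%) and 2 lower (13.3%), against 7.16% and 6.7% of all genes. The receptor *PTCH1*, which is itself a target of the pathway, fell (log2 fold change -0.52 ± 0.06 SE, adjusted p = 0.000503). Of 16 IGF genes tested, 1 was higher (6.25%) and 2 lower (12.5%). *IGFBP2* (chromosome 2, 217602923 to 217632202), a binding protein of fetal tissue, had 69.2 and 65.3 CPM at 80 days and 17.5 and 15.7 CPM at 100 days in WT, and 34.1 and 42.7 CPM and 8.04 and 10.1 CPM in CF. It fell alike in both genotypes, with a log2 fold change of -2.02 in WT and -2.08 in CF (log2 fold change -2.05 ± 0.10 SE, adjusted p = 5.31e-06), while *IGFBP3* rose (log2 fold change 1.71 ± 0.27 SE, adjusted p = 0.00206).

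Of 16 glucocorticoid receptor and response genes tested, 7 were higher and 1 lower, with a median of 0.40. *KLF9*, a hormone-induced factor, had 6.74 and 7.19 CPM at 80 days and 15.2 and 14.2 CPM at 100 days in WT, and 7.07 and 5.81 CPM and 18.4 and 17.6 CPM in CF (log2 fold change 1.29 ± 0.12 SE, adjusted p = 0.000174). The mineralocorticoid receptor *NR3C2* had 13.3 and 9.14 CPM at 80 days and 36.7 and 38.3 CPM at 100 days in WT, and 13.01 and 13.1 CPM and 24.97 and 26.9 CPM in CF (log2 fold change 1.36 ± 0.16 SE, adjusted p = 0.000503). *ZBTB16* rose (log2 fold change 2.004, adjusted p = 0.0035). *FKBP5*, which glucocorticoids induce in many tissues, fell, with 37.3 and 34.99 CPM at 80 days and 19.2 and 21.1 CPM at 100 days in WT, and 28.005 and 39.9 CPM and 14.7 and 16.1 CPM in CF (log2 fold change -0.99 ± 0.12 SE, adjusted p = 0.000503), so the members did not share a direction.

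Of 23 innate defence and complement genes, 6 were higher and 1 lower, with a median of 0.51. *PIGR*, which carries antibodies across epithelium, had 0.771 and 1.33 CPM at 80 days and 12.9 and 14.1 CPM at 100 days in WT, and 0.7698 and 0.451 CPM and 4.71 and 3.998 CPM in CF (log2 fold change 3.23 ± 0.26 SE, adjusted p = 7.57e-05). At 100 days WT stood above CF. *C3*, the central complement protein, had 18.6 and 20.5 CPM at 80 days and 43.98 and 56.5 CPM at 100 days in WT, and 14.1 and 15.8 CPM and 28.7 and 24.1 CPM in CF (log2 fold change 1.09 ± 0.13 SE, adjusted p = 0.000533). *WFDC1*, a whey acidic protein family member, had 5.07 and 6.498 CPM at 80 days and 18.6 and 20.3 CPM at 100 days in WT, and 14.9 and 15.3 CPM and 19.5 and 23.8 CPM in CF and rose (log2 fold change 1.09 ± 0.22 SE, adjusted p = 0.00795). The complement gene LOC101123672 was higher as well (log2 fold change 0.49 ± 0.14 SE, adjusted p = 0.0407). By contrast *KNG1* (log2 fold change -0.23 ± 0.40 SE, adjusted p = 0.76), *CHI3L1* (log2 fold change 0.61 ± 0.23 SE, adjusted p = 0.115) and the chemokine *CXCL8* (log2 fold change 1.75 ± 0.67 SE, adjusted p = 0.112) did not pass. LOC101123672 and *CXCL8* are named after their values were seen. WT replicate 2 at 80 days had 7.57 CPM of *KNG1*, and the sign of its change turned without that library (0.41).

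Of 25 interferon and antigen presentation genes, 7 were higher and 2 lower, with a median of 0.35. The antiviral gene *OAS1* had 8.701 and 5.66 CPM at 80 days and 38.5 and 37.8 CPM at 100 days in WT, and 3.14 and 3.23 CPM and 29.3 and 12.1 CPM in CF (log2 fold change 2.56 ± 0.25 SE, adjusted p = 0.000176). *MX1*, a GTPase that blocks viruses, had 9.02 and 9.09 CPM at 80 days and 44.2 and 38.9 CPM at 100 days in WT, and 4.098 and 3.57 CPM and 26.99 and 9.996 CPM in CF (log2 fold change 2.23 ± 0.24 SE, adjusted p = 0.000333). In both, CF replicate 1 at 100 days was well above CF replicate 2. *RSAD2*, whose exons overlap another locus, rose (log2 fold change 2.55, adjusted p = 0.000335) and *ISG15* (log2 fold change 2.56, adjusted p = 0.0018). The chemokine *CXCL10*, which interferon gamma induces, ran against them, with 115 and 144 CPM at 80 days and 11.7 and 10.5 CPM at 100 days in WT, and 12.2 and 36.3 CPM and 2.63 and 4.86 CPM in CF (log2 fold change -3.13 ± 0.33 SE, adjusted p = 0.00028). It fell in each genotype, and WT replicates stood above CF replicates at both ages. Its neighbour *CXCL11*, named after its values were seen, fell (log2 fold change -2.29, adjusted p = 0.000863). The 7 rises became 4 without WT replicate 2 at 100 days.

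Of 20 myeloid genes tested, 2 were higher (10%) and 1 lower (5%), against 7.16% and 6.7% of all genes. Of 16 lymphoid genes, 0 passed in either direction. The myeloid list summed to 196 to 279 CPM at 80 days and 194 to 276 CPM at 100 days, and *CD5L* was at 0 in every library. *MRC1*, a macrophage receptor, fell (log2 fold change -0.996, adjusted p = 0.0162) and *LAPTM5*, of blood cells, rose (log2 fold change 0.42, adjusted p = 0.0133). Of 18 erythroid genes tested, 2 were higher, among them *ALAS2*, the first enzyme of erythroid haem synthesis, with 13.9 and 10.9 CPM at 80 days and 21.9 and 20.3 CPM at 100 days in WT, and 7.67 and 7.35 CPM and 14.4 and 12.6 CPM in CF (log2 fold change 0.81 ± 0.11 SE, adjusted p = 0.00098). The median of the list was 1.15 in WT and -0.74 in CF. Of 18 neuroendocrine and neuron genes tested, 5 were lower and 1 higher. *UCHL1*, a neuronal ubiquitin hydrolase, had 227 and 187 CPM at 80 days and 123 and 114 CPM at 100 days in WT, and 139 and 179 CPM and 80.9 and 79.99 CPM in CF (log2 fold change -0.895 ± 0.09 SE, adjusted p = 0.000249). *SCG5*, a chaperone of secretory granules, fell (log2 fold change -0.904, adjusted p = 0.000358) and the peptide gene *GRP* (log2 fold change -2.17, adjusted p = 0.00771).

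Markers of neighbouring organs were low. The 13 striated muscle genes in the table summed to 15.3 to 39.4 CPM over the 8 libraries with *NPPA* at 0 in all and 0 of 5 tested past 0.05, the 10 thyroid and thymus genes to 5.04 to 8.72 CPM and the 13 liver genes to 51.3 to 111 CPM. Of 7 thyroid and thymus genes tested, *PAX8* was lower (log2 fold change -0.69 ± 0.19 SE, adjusted p = 0.0359, kept in 2 of 8 fits without 1 library) and 0 were higher. Of 5 liver genes tested, *ALB* rose (log2 fold change 1.68 ± 0.43 SE, adjusted p = 0.0259, kept in 4 of 8) and 1 fell. Of 20 hypoxia and glycolysis genes, 2 were higher and 1 lower, with *ADM* at 0.87 (adjusted p = 0.0239, kept in 4 of 8). Of 18 immediate early and heat shock genes tested, 3 were higher and 1 lower. The summed level of the list moved in opposite directions, from 3060 to 3330 CPM at 80 days to 4890 to 4910 CPM at 100 days in WT, and from 4690 to 5270 CPM to 3990 to 4090 CPM in CF, with medians of 0.348 and -0.0383. *HSPA6* and *DNAJB1*, heat shock genes named after their values were seen, rose in WT (2.16 and 0.88) and had log2 fold changes of -0.37 and -0.13 in CF (difference adjusted p = 0.0191 and 0.0176). *EGR1* fell (log2 fold change -0.98 ± 0.20 SE, adjusted p = 0.00876) and *HSPB1*, a small heat shock protein, rose (log2 fold change 0.51 ± 0.10 SE, adjusted p = 0.00559). The part of tissue handling in these values was not tested. Of 3 mesothelial genes tested, 0 passed. Among all genes tested, 7.16% were higher and 6.7% lower. *TJP1*, a tight junction scaffold that the study names, had 248 and 234 CPM at 80 days and 309.6 and 298 CPM at 100 days in WT, and 338 and 245 CPM and 350.2 and 319 CPM in CF and did not pass (log2 fold change 0.27 ± 0.09 SE, adjusted p = 0.0879).

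The rule for large changes named 12 rises and 12 falls, all past an adjusted p of 0.05 in each fit that left out 1 library. Among those not yet described, *GSTA1-1* (chromosome 20, 24799848 to 24813464), a glutathione transferase, had 14.4 and 16.2 CPM at 80 days and 86.1 and 98.9 CPM at 100 days in WT, and 3.45 and 2.29 CPM and 53.3 and 36.9 CPM in CF (log2 fold change 3.26 ± 0.27 SE, adjusted p = 8.14e-05). WT began well above CF at 80 days. *COL28A1*, a collagen with exons that overlap another locus, rose by 2.703, the opioid precursor *PDYN* by 2.43 and the sialyltransferase *ST8SIA5* by 2.38 (adjusted p = 0.000927, 0.000359 and 0.000404).

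The largest fall under the rule for large changes was that of *BCAT1* (chromosome 3, 189643355 to 189761927), the cytosolic aminotransferase of branched-chain amino acids. It had 14.3 and 11.3 CPM at 80 days and 1.59 and 0.577 CPM at 100 days in WT. In CF it had 9.93 and 9.59 CPM, then 0.709 and 0.562 CPM. Its level at 100 days was under 2 CPM in every library (log2 fold change -3.78 ± 0.26 SE, adjusted p = 3.06e-05). *CRABP2* (chromosome 1, 105127461 to 105133370), which carries retinoic acid to its receptors, had 44.9 and 55.8 CPM at 80 days and 7.697 and 8.16 CPM at 100 days in WT, and 35.1 and 57.2 CPM and 11.6 and 14.4 CPM in CF (log2 fold change -2.22 ± 0.20 SE, adjusted p = 0.000126). *KCNJ13*, an inward rectifier potassium channel, had 5.65 and 8.28 CPM at 80 days and 0.976 and 0.708 CPM at 100 days in WT, and 2.08 and 3.11 CPM and 0.571 and 0.687 CPM in CF (log2 fold change -2.52 ± 0.29 SE, adjusted p = 0.000423). Its ages did not overlap, as the rule for large changes required. *LMO1*, *IGDCC3*, *ASTN1* and *LGI2* fell with log2 fold changes of -3.01, -2.44, -2.31 and -2.08, and adjusted p of 0.000863, 0.000165, 0.000277 and 0.000802. *DIO2*, which activates thyroid hormone, fell (log2 fold change -2.04, adjusted p = 0.00058) and *CLSTN3* (log2 fold change -2.23, adjusted p = 0.000404), and both have exons that overlap another gene.

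The change differed between genotypes for 2 genes as DEGs of the interaction (0.0107% of 18663) and for 35 (0.188%) at an adjusted p of 0.05. Both DEGs lie on chromosome 13, with another locus between them. *ASIP* (chromosome 13, 63051795 to 63128668), the agouti signalling protein of coat colour, had 64.7 and 56.7 CPM at 80 days and 1.12 and 1.102 CPM at 100 days in WT, and 87.1 and 117 CPM and 105 and 114 CPM in CF. It was low in both WT libraries at 100 days, which carry 1 animal label, and in CF the libraries of the 2 ages overlapped (log2 fold change -5.77 in WT and 0.10 in CF, adjusted p of the difference = 2.54e-06). Single WT libraries were as low at other ages. Normalized over 20 distal libraries, *ASIP* had 1.48 and 74.4 CPM in WT at 65 days and 1.33 and 95.5 CPM at 120 days, while the CF libraries of the 5 ages held 80.2 CPM or more. Its level in WT thus differed between libraries of 1 age as much as between 80 and 100 days, and age and animal cannot be told apart in the WT change. LOC101111988 (chromosome 13, 62891454 to 62940718) had 19.6 and 17.9 CPM at 80 days and 0.0723 and 0.0525 CPM at 100 days in WT, and 43.9 and 50.8 CPM and 55.6 and 61.5 CPM in CF, with an adjusted p of the difference of 7.74e-07. Between them, LOC101112245 (chromosome 13, 62953304 to 62969072) had 185 and 162 CPM at 80 days and 95.2 and 91.04 CPM at 100 days in WT, and 173 and 173 CPM and 160.1 and 171 CPM in CF. Beyond *ASIP*, *AHCY* (chromosome 13, 63143406 to 63159173), adenosylhomocysteinase, had 186 and 162 CPM at 80 days and 95.3 and 91.01 CPM at 100 days in WT, and 173 and 173 CPM and 160.2 and 171 CPM in CF. These 2 loci have nearly the same value in every library, and reads from them cannot be told apart, and each had a log2 fold change of -0.90 in WT (adjusted p of the difference = 0.0304). The next genes on either side, *EIF2S2* and *ITCH*, changed by -0.02 and 0.01 in WT. Genes of this locus other than *ASIP* are named after their values were seen.

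*LUZP2* had 59.7 and 37.1 CPM at 80 days and 5.85 and 5.59 CPM at 100 days in WT, and 28.8 and 21.1 CPM and 44.5 and 40.5 CPM in CF. It fell in WT (-3.08) and not in CF (0.77, adjusted p of the difference = 0.00135). *SCUBE1*, a secreted and surface glycoprotein, rose from 5.59 and 5.62 CPM to 36.8 and 34.3 CPM in WT, whereas CF had 37.1 and 31.9 CPM already at 80 days (adjusted p of the difference = 0.00135). *ITGA8*, an integrin of mesenchyme, rose in WT (1.21) and had a log2 fold change of 0.02 in CF (adjusted p of the difference = 0.00638).

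Proximal tissue of the same fetuses gave 0 DEGs (0%) between 80 and 100 days by edgeR among 18214 genes tested, with 67 higher (0.368%) and 40 lower (0.22%) at an adjusted p of 0.05 and 2058 at an unadjusted p of 0.05. All 223 distal DEGs had the same sign in proximal lung, against 73.4% of all genes. Of them, 71 passed an adjusted p of 0.05 there. The regions come from the same fetuses, so these signs are not independent of the distal ones. The proximal pairs were also farther apart, by a root mean square of 0.455 to 0.722 in log2 CPM. CF proximal replicate 2 at 80 days stood apart for some genes. It had 44.1 CPM of *COL5A3* against 1.28 to 3.43 CPM in the other 7 libraries and 118 CPM of *SFRP1* against 7.03 to 15.4 CPM. Without it there were still 0 DEGs, with 42 genes higher and 19 lower at an adjusted p of 0.05, and 45 of the 223 passed there. Leaving out any 1 WT proximal library instead left 9 to 16 genes higher and 4 to 9 lower, and 12 to 22 of the 223. The difference between the distal and the proximal change, tested with libraries of 1 animal label and replicate number as a block, was called for 0 of 19345 genes (0%), and 301 had an unadjusted p of 0.05 or less. At 100 days in WT all 4 libraries carry 1 animal label, so there the block rests on the replicate number. By edgeR none of the distal changes was thus shown to differ from proximal lung. Without both regions of that CF replicate, 0 genes passed an adjusted p of 0.05 by edgeR and 432 an unadjusted one. DESeq2 called *MUC13* and *COL9A2*, with a distal minus proximal change of 7.19 and 1.43 (adjusted p = 4.58e-05 and 0.0319). *SLC1A1* changed by 3.46 in proximal lung (adjusted p = 0.00238), *CLDN18* by 2.01 (adjusted p = 0.00238) and *IGFBP2* by -2.28 (adjusted p = 0.00812). The cell cycle list had a median of -0.40 in proximal lung with 0 of its members past 0.05. The surfactant list had 0.46 with 4 members higher (0 to 4 without 1 proximal library) and 1 lower, and the type 1 list 0.78 with 2 higher (1 to 3).

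The same genes were read at all 5 ages in distal lung, in CPM normalized over 20 libraries, as a description that shares libraries with the comparison above. *SFTPA1* continued from 21.9 and 25.7 CPM in WT at 100 days to 226 and 187 CPM at 120 days, and in CF from 12.6 and 17.8 CPM to 1190 and 1260 CPM. *CLDN18* had 39.6 and 52.9 CPM in WT at 65 days, close to the 54.9 and 53.2 CPM at 80 days, before 270 and 294 CPM at 100 days. In CF it had 18.4 and 14.7 CPM at 65 days, lower than at 80 days. *IGFBP2* went down across each interval from 65 to 120 days, from 100 and 108 CPM to 3.56 and 5.50 CPM in WT. *BCAT1* had 16.8 and 13.7 CPM at 65 days in WT, and *COL2A1* went on to 1.08 and 2.20 CPM in WT at 120 days and 0.880 and 0.667 CPM in CF.

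**Figure D5:**
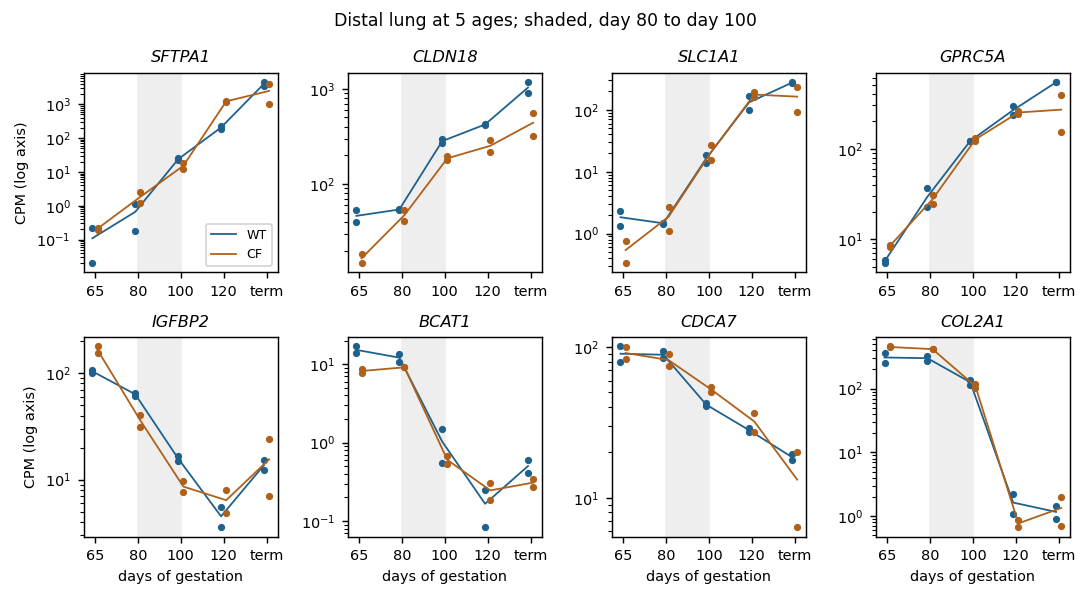
CPM on a log axis in distal lung at 65, 80, 100 and 120 days and at term for 8 genes, with a point for each library, a line through the mean of 2, WT in blue and CF in brown, and the interval from 80 to 100 days shaded. *BCAT1* is level before the shaded interval and drops within it, *SFTPA1* and *GPRC5A* are higher at each later age up to 120 days, and *COL2A1* is lower still at 120 days. A library with 0 counts of *SFTPA1* at 65 days is drawn at the lower edge.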

How the data were processed

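The deposited values are raw read counts per gene for 24478 genes. Paired reads of 100 bp were aligned by the authors against Oar_v4.0, using STAR (2.6 per the labels, another version in the study's methods). Genes were counted by featureCounts 1.6.3, and the authors tested the counts with edgeR. Annotation release, strand setting and treatment of mates are not given in the sources used here. Of the counts from 1 to 20 in the 8 libraries, even numbers made up 75.6% to 78%, which happens when each mate of a pair is counted. 1 read was worth 0.00979 to 0.0361 CPM.

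The present tests used edgeR 4.0.16 in R 4.3.3. Genes were kept by filterByExpr (count minimum 10, total minimum 15) and TMM-normalized. The main fit had a genotype and an age term (glmQLFit, glmQLFTest, 5 residual degrees of freedom). WT, CF and their difference came from a fit with 1 mean per group, and the distal against proximal change from 16 libraries with animal label and replicate number as a block. SE is the log2 fold change over the square root of F. On simulated data, 63 of 100 genes with a log2 fold change of 1 were recovered as DEGs and 75 of 96 with 2, of 17971 genes tested, with 0 false calls. Each simulated library was drawn independently with the fitted spread and no shared animal. The 0 false calls therefore give no false-call rate for the real data. 

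The comparison, 35 gene lists and tests were chosen with earlier results of these data known. Genes named are the 12 largest rises and 12 largest falls among DEGs (average log2 CPM of 1 or more, no overlap between ages, no LOC symbol), up to 4 called members per list by size of change (average log2 CPM of 0 or more), 14 genes the study names, and the 5 with the smallest p of the genotype difference (average log2 CPM of 1 or more, no LOC symbol). Some genes that these rules take are not reported here. Coordinates and overlapping exons come from the deposited annotation columns. The reference table at hand is of another assembly, so no sequence is printed. Alternatives were RLE, no filter, DESeq2 1.42.0, limma-voom (limma 3.58.1), glmTreat, other p limits, other fits, thinning, a replicate block and each library left out. A deposited table of CF counts that repeats the same values was not used, and 0 columns of other series were present.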

Additional observations from a re-analysis of the deposited data

Results flagged for a closer look

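By Dixon's test, 15 of 258 groups of 4 libraries (129 genes at 2 ages) held a library far from the other 3, 14 of them at 80 days. The test marks about 1 in 20 groups drawn from 1 population. Each group here pools 2 WT and 2 CF libraries, so that rate does not apply as it stands. CF replicate 1 at 80 days was high for *COL28A1* (8.39 CPM, next 2.64), *COL4A4* (53.8, next 25.7), *ZBTB16* (1.11, next 0.500) and *TJP1* (338, next 248), and low for *CLDN18* (44.9, next 56.1) and *SLC2A1* (39.9, next 47.8). CF replicate 2 at 80 days was low for *NRP1* (233 CPM, next 262) and high for *WNT7B* (25.1, next 18.6). WT replicate 2 at 80 days was high for *SCGB3A2* (11.6 CPM, next 1.22), *PI16* (2.33, next 0.835) and *KNG1* (7.57, next 1.73), and low for *ESAM* (47.6, next 56.5) and *NR3C2* (9.14, next 13.0). WT replicate 1 was high for *GINS1* at 80 days (84.0 CPM, next 68.9) and for *BCAT1* at 100 days (1.59 CPM, next 0.709).

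The change from 80 to 100 days differed between genotypes by the interaction test for 5 of the genes reported here under the naming rule, beside those named after their values were seen. It is given as the CF minus the WT log2 fold change. The difference was 5.87 for *ASIP* (adjusted p = 2.54e-06) and 3.85 for *LUZP2* (adjusted p = 0.00135), where the level fell in WT. It was -2.07 for *SCUBE1*, -1.2 for *ITGA8* and -1.35 for *PLN*, the phospholamban gene of muscle (adjusted p = 0.00135, 0.00638 and 0.0305), where the rise was in WT or larger there. The WT side of each rests on 2 libraries at 100 days with 1 animal label, and what that label contributes was not tested.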

How the results depend on the processing

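The number of DEGs depended on the fit far more than the direction of the genes did. Against 132 higher and 91 lower, no filter gave 286 and 205, DESeq2 432 and 329, glmTreat 15 and 5, the spread of all 20 distal libraries 32 and 4, the WT libraries at 100 days summed 17 and 7, and adjusted p limits of 0.01 and 0.05 gave 333 and 285, and 555 and 516. With 1 mean per group, 138 were lower. Leaving out 1 library gave 16 to 209 higher and 7 to 131 lower. In total the count moved by over 1.5 times without CF replicate 1 at 80 days (340), CF replicates 1 and 2 at 100 days (112 and 96), WT replicates 1 and 2 at 80 days (82 and 135) and WT replicates 1 and 2 at 100 days (23 and 30), and the falls alone also without CF replicate 2 at 80 days (46). The cause was not tested, beyond there being fewer samples. All 223 DEGs kept their sign in every alternative, and all had an adjusted p of 0.05 or less except with glmTreat (114 of 223) and with all 20 distal libraries (142 of 223). Of the 24 largest changes, 5 stayed DEGs in every fit without 1 library. Of 129 named genes, 120 had an adjusted p of 0.05 or less, 95 of them in every such fit, and 16 in 4 or fewer of the 8. *COL4A4* and *COL5A3* kept it in 5, *AGR3* and *SCGB3A2* in 6, and *COL4A3*, *LAPTM5*, *MRC1*, *SFRP4* and *VWF* in 7.

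The genotype difference, 2 DEGs in the main fit, was called for 18 genes without a filter, 72 by DESeq2, 4 after thinning, 35 at an adjusted p of 0.05 and 2 to 9 without 1 library. Within WT (138) the counts were 500 without a filter, 858 by DESeq2, 1292 at 0.05 and 6 to 374 without 1 library, and within CF (17) 174, 438, 535 and 1 to 102. With the genotypes fitted apart, chosen after seeing the data, they were 265 and 0. The distal minus proximal difference gave 0 DEGs throughout, from 0 to 0 without 1 replicate of both regions and with no replicate block, except 1 by DESeq2, *MUC13*. Proximal lung gave 0 to 0 without 1 library, a setting chosen after seeing the data. Of the named genes, a reversed sign arose only for *KNG1*, which passed in no fit, after thinning (0.25) and without WT replicate 2 at 80 days (0.41, against -0.50 without WT replicate 1).

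The labels do not say that a replicate number marks an animal, litter or batch shared between ages, so the numbers were not taken as pairs. Deviations of equal numbers correlated at 0.0518 in WT and 0.304 in CF. With the replicate block there were 102 higher and 64 lower genes, 4 for the genotype difference, 241 within WT and 70 within CF.

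List counts moved by over 1.5 times most often with the spread of all 20 distal libraries. There the members higher were 5 of the surfactant list (10 in the report), 6 type 1 (12), 3 transport (6), 3 endothelial (14), 2 elastic fibre (8), 3 collagen (10), 1 fibroblast and pericyte (7), 0 WNT (5), 5 BMP and TGF beta (12), 4 glucocorticoid (7) and 9 solute carriers (20). The members lower were 4 of the cell cycle list (91), 0 tip factors (7), 0 oncofetal (5), 2 lymphatic (6), 3 cartilage (6), 1 WNT (7), 1 neuroendocrine (5) and 0 solute carriers (19). The oncofetal falls were 8 by DESeq2, limma-voom and 1 mean per group, and the WNT rises 8 with no filter and 1 mean per group. With the WT libraries at 100 days summed, endothelial rises were 9, neuroendocrine falls 3, and solute carrier rises and falls 11 and 7. Without WT replicate 1 at 100 days, neuroendocrine falls went from 5 to 3, WNT rises from 5 to 3, and solute carrier rises and falls from 20 and 19 to 10 and 8. Without WT replicate 2 at 100 days, solute carriers had 11 and 7 and neuroendocrine falls were 3, and without WT replicate 1 at 80 days solute carriers had 12 and 12, WNT rises were 3 and neuroendocrine falls 3. Neuroendocrine falls were also 3 without WT replicate 2 at 80 days, and without CF replicate 2 at 100 days WNT rises were 3 and solute carrier falls 11. Depth limits low genes in WT, where 1 read is 0.0238 to 0.0361 CPM.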
